A study of Rattus norvegicus with 4 samples.

Results

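Genes of fatty acid oxidation and ketogenesis were examined in the small intestine of rats that drank compost extract and of rats that drank water. Of 57 gene names, 50 were carried by at least 1 gene probe of the array. A gene was taken where a probe with its name was well above background, by the scanner software's flag, on at least 2 of the 4 arrays, which gave 49 genes with 65 probes, out of 24310 genes or unnamed transcripts and 28415 probes measured by the same criterion after outlier spots were left out. Acox2, a peroxisomal oxidase of branched-chain substrates, was well above background on 1 array and did not meet it. No probe carried the names Acaa1a, Acaa1b, Acot1, Acot2, Acot4, Eci1 or Hadh, although by accession the probes named Acaa1, Dci and Hadhsc stand for Acaa1a, Eci1 and Hadh in the RefSeq annotation. Echs1, the mitochondrial enoyl-CoA hydratase, met the criterion but had an outlier spot on the array of compost replicate 2. Its other values were 5.95 in compost replicate 1, against 6.22 and 6.30 in the control rats, and it was left out of the tests, so that 48 genes with 64 probes were fitted.

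The compost rats were male Wistar rats, an outbred stock, given tap water with 1% (v/v) compost extract from 3 weeks of age for 12 weeks, and the control rats were male Wistar rats of the same age given tap water alone. Each group had 2 individual rats with 1 one-colour array each. The tissue was small intestine without Peyer's patches, the lymphoid clusters of the gut wall, and the segment is not stated in the labels. Compost was fermented, diluted in water and kept warm to make the extract, and body weights of the groups did not differ, per the labels.

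Fatty acids are activated to acyl-CoA, carried into mitochondria as carnitine esters and shortened there in a repeated cycle of dehydrogenation, hydration, oxidation and thiolysis. Peroxisomes run a parallel cycle on very long and branched chains, and the acetyl-CoA made in mitochondria can be turned into ketone bodies. In the gut these enzymes are found in absorptive enterocytes, which take up dietary fat, and many of their genes are targets of the lipid-sensing nuclear receptor PPAR-alpha and its coactivator PGC-1alpha, the product of Ppargc1a.

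No member passed limma's test of compost against control (0 higher and 0 lower, adjusted p under 0.05 over all 28415 probes, of which 0% were called higher and 0% lower). At an unadjusted p under 0.05 there were 4 members, namely Acot12, Ehhadh and Ppargc1a below their control values and Acsl4 above, where 1.8% of all genes reached this p with a lower and 1.51% with a higher value in compost. By sign alone, 38 of the 48 members (79.2%) had a lower mean in compost, where 53.5% of all genes did, and 10 had a higher mean, where 46.5% did. In 16 members (33.3%) each compost value was below each control value, against 15.2% of all genes, and in 2 members (4.17%) each was above, against 12.7% of all genes. The median difference over the members was -0.18 log2 units, a 1.13-fold lower level, and over all genes it was -0.018. These members vary together within an animal, so the counts describe these 4 rats and are no test, and every difference that follows is on the log2 scale, compost minus control, with the standard error (SE) of the limma model.

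**Figure D1:**
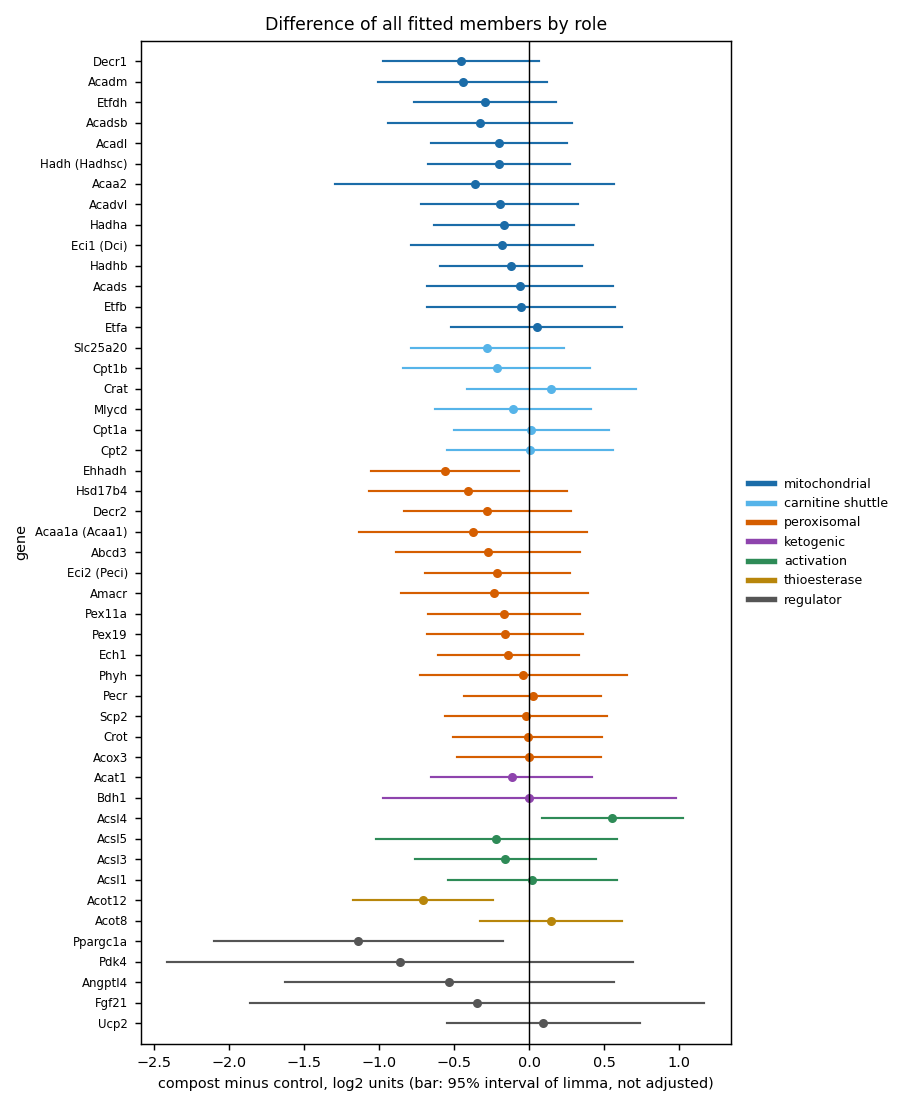
Difference between 2 compost rats and 2 control rats for each of the 48 fitted genes (points, log2 units), with the 95% interval of the limma model before adjustment (bars) and coloured by role. Most points lie left of 0 and all but 4 of the 48 intervals cross 0, the exceptions being Ehhadh, Acsl4, Acot12 and Ppargc1a.

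The sequences just upstream of the gene start are shown for 4 members, since the mitochondrial Acadm and the coactivator gene Ppargc1a held the 8-letter cAMP response element and Ehhadh and Acot12 were the enzymes below their control values with the smallest p. Each is the 250 bases before the RefSeq start in build GRCr8, read 5′ to 3′ on the strand of the gene, with matches in capitals. The windows are chr14:63634058-63634307 for Ppargc1a (plus strand), chr2:245542865-245543114 for Acadm (minus strand), chr11:92746159-92746408 for Ehhadh (plus strand) and chr2:24721709-24721958 for Acot12 (plus strand).
Ppargc1a: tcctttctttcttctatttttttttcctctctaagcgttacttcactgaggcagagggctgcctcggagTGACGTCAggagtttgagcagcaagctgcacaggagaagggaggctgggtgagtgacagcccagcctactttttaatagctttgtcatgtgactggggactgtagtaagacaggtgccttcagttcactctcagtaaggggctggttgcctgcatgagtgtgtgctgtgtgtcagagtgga
Acadm: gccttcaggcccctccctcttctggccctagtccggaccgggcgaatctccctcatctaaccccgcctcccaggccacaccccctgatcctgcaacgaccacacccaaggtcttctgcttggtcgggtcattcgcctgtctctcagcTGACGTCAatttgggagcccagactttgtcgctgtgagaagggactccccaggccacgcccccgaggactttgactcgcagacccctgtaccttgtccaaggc
Ehhadh: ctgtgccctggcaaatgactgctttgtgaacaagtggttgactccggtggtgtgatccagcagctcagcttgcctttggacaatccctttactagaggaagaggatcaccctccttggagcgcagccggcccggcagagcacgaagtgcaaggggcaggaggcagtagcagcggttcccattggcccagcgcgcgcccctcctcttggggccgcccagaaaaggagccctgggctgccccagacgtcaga
Acot12: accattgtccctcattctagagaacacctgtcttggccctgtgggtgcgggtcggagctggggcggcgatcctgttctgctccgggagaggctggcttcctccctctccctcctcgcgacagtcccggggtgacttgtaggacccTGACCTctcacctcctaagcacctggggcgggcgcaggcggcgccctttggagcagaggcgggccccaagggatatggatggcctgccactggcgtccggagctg

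Promoter windows were found for 43 of the members. The cAMP response element TGACGTCA, which reads the same on both strands, was in 2 of them (4.65%), Acadm and Ppargc1a, and in 1.70% of the 27457 windows of all genes. It began 103 bases before the start of Acadm and 181 bases before that of Ppargc1a. The half-site of nuclear receptors, AGGTCA on either strand, was in 6 member windows (14.0%), those of Acadvl, Acot12, Acot8, Amacr, Eci1 and Hsd17b4, and in 13.7% of all windows. The direct repeat known as DR1, a pair of AGGNCA half-sites with any base between them, which PPAR-alpha binds with its partner, was searched on both strands and was in 0 member windows and in 0.353% of all windows. Where N within it is T, the repeat contains the half-site. These are letter matches in short windows, and the share of members with the half-site was close to that of all genes.

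Of the 14 mitochondrial enzymes of the cycle, 13 (92.9%) had a lower mean in compost, against 53.5% of all genes. The groups did not overlap, with compost the lower, in 8 (57.1%), against 15.2% of all genes. The median difference of the 14 was -0.20, a 1.15-fold lower level. Values below are log2 intensities relative to the 75th percentile of the array, replicate 1 before replicate 2. Decr1, the dienoyl-CoA reductase that handles unsaturated chains, had 4.18 and 4.12 in compost rats, against 4.75 and 4.46 in control rats (difference -0.45 ± 0.20 SE, n = 2 and 2). Acadm, the medium-chain acyl-CoA dehydrogenase, had 5.54 and 5.90 in compost rats, against 6.09 and 6.25 in control rats (-0.44 ± 0.21). In both genes the higher compost rat lay below the lower control rat. Etfdh, which passes electrons from these dehydrogenases to the respiratory chain, had 2.68 and 2.69 in compost rats, against 3.06 and 2.90 in control rats (-0.30 ± 0.18). Acadl, the long-chain dehydrogenase, had 6.63 and 6.68 in compost rats, against 6.86 and 6.86 in control rats (-0.21 ± 0.17). The rats of a group lay close together in both, and the gap between the groups was small in Acadl. Acadsb, a dehydrogenase of short branched chains that also serves isoleucine breakdown, had -4.77 and -4.61 in compost rats, against -4.59 and -4.14 in control rats (-0.33 ± 0.23), with the groups almost touching. When 1 array was left out, Acadm ranged from -0.62 to -0.27 and Acadsb from -0.55 to -0.10. None of these 5 passed (lowest unadjusted p = 0.0744, for Decr1).

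The other 9 mitochondrial members differed by -0.37 to 0.049, 8 of them with a lower mean in compost. Both subunits of the trifunctional protein, Hadha (-0.17 ± 0.18 SE) and Hadhb (-0.12 ± 0.18), and the hydroxyacyl-CoA dehydrogenase gene Hadh, named Hadhsc on the array (-0.20 ± 0.18), kept the groups apart by small gaps. Acaa2, the mitochondrial thiolase, had the most negative difference of the 9, and its compost rats spanned the control rats. It had 4.63 and 3.70 in compost rats, against 4.47 and 4.59 in control rats (-0.37 ± 0.35, and 0.10 without compost replicate 2). The short-chain dehydrogenase gene Acads (-0.062 ± 0.24) and the electron transfer flavoprotein genes Etfb (-0.055 ± 0.24) and Etfa (0.049 ± 0.22) lay nearest to 0.

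Of the 6 carnitine shuttle genes, 3 had a lower and 3 a higher mean, with Cpt1a and Cpt2 at 0 within their error, and the median difference was -0.052. Slc25a20, the carnitine-acylcarnitine carrier of the inner membrane, had 3.27 and 3.55 in compost rats, against 3.70 and 3.68 in control rats (-0.28 ± 0.19 SE, and -0.14 without compost replicate 1). It was the only 1 of the 6 (16.7%) with both compost rats below both control rats, close to the 15.2% of all genes, and none had both above. Cpt1b, the muscle form of the outer-membrane transferase, had 1.11 and 1.58 in compost rats, against 1.64 and 1.49 in control rats (-0.22 ± 0.24). Crat, which makes acetylcarnitine, had 0.42 and 0.034 in compost rats, against 0.070 and 0.096 in control rats (0.15 ± 0.21). In Cpt1b and Crat the groups overlapped. The control point of the shuttle, Cpt1a, and the inner-membrane transferase Cpt2 differed by 0.013 ± 0.20 and 0.0046 ± 0.21, with 95% intervals of -0.51 to 0.53 and -0.55 to 0.56, and Mlycd, which removes the malonyl-CoA that inhibits the shuttle, by -0.11 ± 0.20.

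Among the peroxisomal genes, 14 of 15 (93.3%) had a lower mean in compost, against 53.5% of all genes, and the median difference was -0.17. In 5 (33.3%) the groups did not overlap and compost was the lower, against 15.2% of all genes. Ehhadh, the bifunctional enzyme of the peroxisomal cycle and a classical PPAR-alpha target, had 0.75 and 0.53 in compost rats, against 1.19 and 1.22 in control rats (-0.56 ± 0.19 SE, 1.48-fold lower, unadjusted p = 0.0326 by limma). Hsd17b4, the second such enzyme, which serves branched chains and bile acid precursors, had 1.80 and 1.67 in compost rats, against 2.42 and 1.87 in control rats (-0.41 ± 0.25). The groups lay apart in both, widely in Ehhadh, while the distance in Hsd17b4 came mainly from control replicate 1. Acaa1a, the peroxisomal thiolase, named Acaa1 on the array, had 4.29 and 4.38 in compost rats, against 5.06 and 4.36 in control rats (-0.37 ± 0.29), and -0.023 without control replicate 1. Decr2, the peroxisomal dienoyl-CoA reductase, had 0.14 and 0.31 in compost rats, against 0.67 and 0.34 in control rats (-0.28 ± 0.21). Abcd3, a transporter of the peroxisomal membrane, had 6.11 and 6.52 in compost rats, against 6.72 and 6.46 in control rats (-0.28 ± 0.23). In these last 3 genes control replicate 1 was the highest array, and the groups overlapped in Abcd3 and on this probe of Acaa1a. The other, dimmer Acaa1a probe had 2.70 and 2.89 in compost rats, against 3.42 and 3.05 in control rats. It differed by -0.44 ± 0.22, and the groups did not overlap on it. Without control replicate 1, Hsd17b4 differed by -0.14, Decr2 by -0.11 and Abcd3 by -0.15, and Abcd3 by -0.073 without compost replicate 1.

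The other 10 peroxisomal members differed by -0.23 to 0.022. The isomerase gene Eci2, named Peci on the array (-0.21 ± 0.18 SE), and Ech1, a dienoyl-CoA isomerase (-0.14 ± 0.18), kept both compost rats below both control rats. The carnitine octanoyltransferase gene Crot (-0.012 ± 0.19), the oxidase gene Acox3 (-0.0031 ± 0.18), the reductase gene Pecr (0.022 ± 0.17) and the sterol carrier gene Scp2 (-0.021 ± 0.20) lay at 0 within their error. Their 95% intervals reached no further than -0.56 and 0.52. Pex11a and Pex19, which serve the division and assembly of peroxisomes, differed by -0.17 ± 0.19 and -0.16 ± 0.20.

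**Figure D2:**
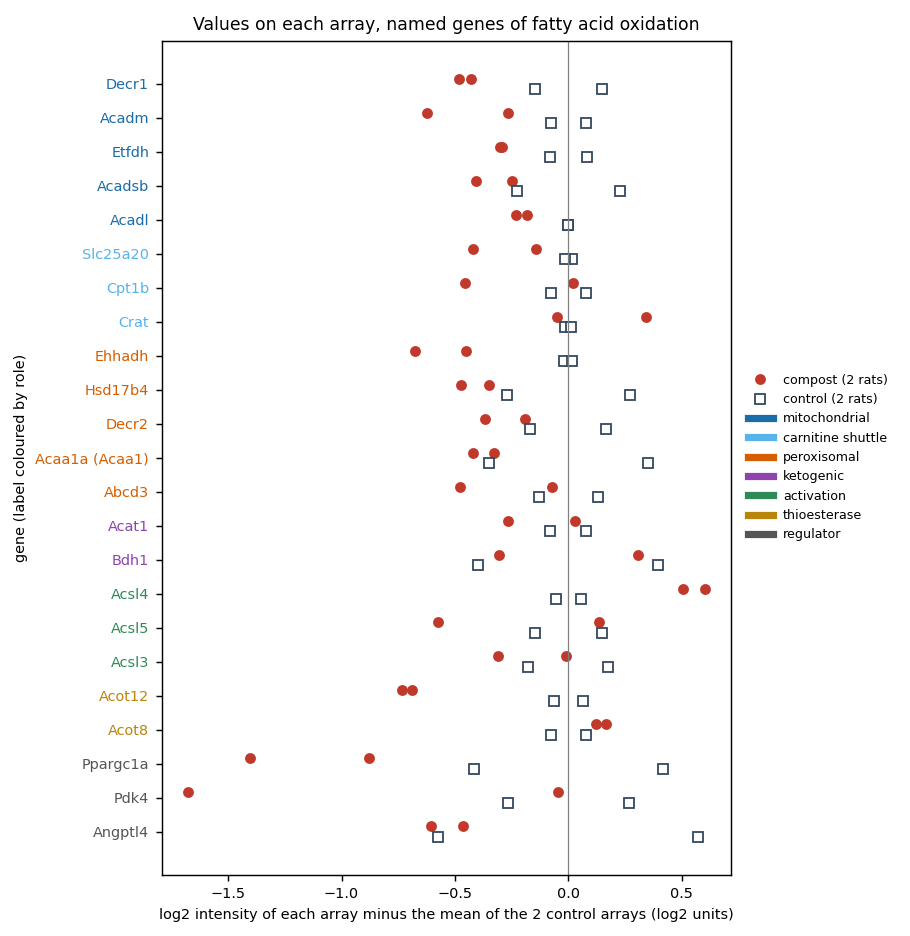
Log2 intensity of each array minus the mean of the 2 control arrays for the 23 members with the smallest p in their role, with compost rats as filled circles above and control rats as open squares below in each row. Compost rats lie to the left of both control rats in genes such as Decr1, Ehhadh and Acot12, to the right in Acsl4 and Acot8, and among them in Bdh1.

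Both ketogenic members overlapped between the groups. Acat1, the mitochondrial acetoacetyl-CoA thiolase, had 3.13 and 3.42 in compost rats, against 3.47 and 3.31 in control rats (-0.12 ± 0.20 SE). Bdh1, which interconverts acetoacetate and hydroxybutyrate, had 2.14 and 1.53 in compost rats, against 1.44 and 2.23 in control rats. It differed by 0.00048 ± 0.37, with a 95% interval of -0.98 to 0.98, so that its rats varied more within each group than the means differed.

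The activating acyl-CoA synthetases were split, 2 lower and 2 higher. Acsl4, which prefers arachidonic acid, had -0.65 and -0.74 in compost rats, against -1.19 and -1.31 in control rats (0.55 ± 0.18 SE, 1.47-fold higher, unadjusted p = 0.0295 by limma). The groups did not overlap on this probe, but the other, dimmer Acsl4 probe gave 0.019 ± 0.18. Acsl5, an abundant synthetase of the intestinal epithelium, had 6.17 and 6.88 in compost rats, against 6.89 and 6.60 in control rats (-0.22 ± 0.31), and Acsl3, which serves lipid droplets, had 3.44 and 3.74 in compost rats, against 3.93 and 3.58 in control rats (-0.16 ± 0.23). The groups overlapped in both. Acsl1 differed by 0.019 ± 0.21, and its 4 probes ranged from -0.18 to 0.019.

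The thioesterases, which release the fatty acid or acetate from CoA, lay on opposite sides. Acot12, a cytosolic acetyl-CoA thioesterase, had -0.082 and -0.13 in compost rats, against 0.67 and 0.54 in control rats (-0.71 ± 0.18 SE, 1.64-fold lower, unadjusted p = 0.0119 by limma). This was the smallest p among the members, with both groups tight, and the difference was -0.78 to -0.65 when any 1 rat was left out. Acot8, the peroxisomal thioesterase, had -2.23 and -2.27 in compost rats, against -2.32 and -2.47 in control rats (0.14 ± 0.18, and 0.066 without control replicate 2), above both control rats by a small gap.

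Of the 5 regulators and signals of fat use, 4 had a lower mean in compost, with a median of -0.53 that was -0.25 with normexp background correction and -0.046 without compost replicate 2. Ppargc1a had -4.34 and -3.81 in compost rats, against -2.52 and -3.35 in control rats (-1.14 ± 0.37 SE, 2.21-fold lower, unadjusted p = 0.0290 by limma). It was the only member with a difference of 1 log2 unit or more below 0, where 1.04% of all genes had one. Its groups did not overlap, and the difference was -0.73 without control replicate 1 and -0.68 with normexp background correction. Pdk4, the kinase that turns pyruvate oxidation off when fat is burned, had -5.43 and -7.07 in compost rats, against -5.66 and -5.12 in control rats (-0.86 ± 0.59). It was well above background in 1 rat of each group, and its difference was -0.046 without compost replicate 2. Angptl4, a secreted inhibitor of lipoprotein lipase, had -1.22 and -1.08 in compost rats, against -0.045 and -1.19 in control rats (-0.53 ± 0.42), and 0.039 without control replicate 1. Fgf21, a hormone of fasting, differed by -0.35 ± 0.58 and the mitochondrial carrier gene Ucp2 by 0.092 ± 0.24, both with overlapping groups.

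Where a member had several probes, their differences had the same sign in 12 of 13 genes. The median spread of the difference between the probes of a gene was 0.078. The exception in sign was Acsl1, and Acsl4 had the widest spread, 0.53.

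The members also differed between rats within a group. Control replicate 1 was the highest of the 4 arrays for 24 of the 48 members, and compost replicate 1 was the lowest for 25. Over all 24310 genes, control replicate 1 was the highest for 5416. Compost replicate 1 was the lowest for 9171 of them, more often than any other array. The median deviation of the members from their own 4-array mean was -0.15 and -0.060 in the compost rats, against 0.12 and 0.039 in the control rats. For all genes it was -0.042 and 0.030 in the compost rats, against -0.0055 and 0.025 in the control rats. Without control replicate 1 the members' median difference was -0.13, beside -0.033 for all genes, and without compost replicate 2 it was -0.25, beside -0.047 for all genes.

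**Figure D3:**
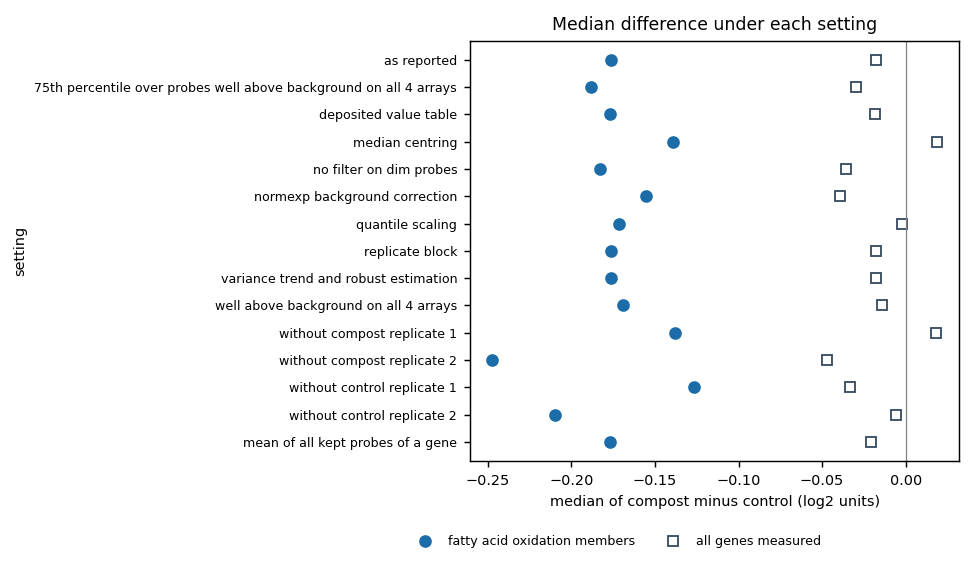
Median of compost minus control (log2 units) under each processing setting and with 1 array left out, for the members (filled circles) and for all genes (open squares). The members number 48, but 49 without a filter on dim probes and 47 with only probes well above background on all 4 arrays. The members lie between -0.25 and -0.13, to the left of all genes in every row.

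Genes of the same pathway that are not members were taken from 3 further lists, and none of them passed. Of 18 further genes of oxidation, fatty acid uptake and ketone metabolism, 11 (61.1%) had a lower mean in compost, with a median of -0.16. Of all genes, 53.5% had a lower mean. The groups lay apart with compost lower in 7 (38.9%), against 15.2% of all genes. They lay apart with compost higher in 0, against 12.7% of all genes. Slc22a5, the cellular carnitine importer, had 0.029 and 0.045 in compost rats, against 0.75 and 0.65 in control rats (-0.67 ± 0.17 SE). Hibch, an enzyme of valine breakdown, differed by -0.54 ± 0.20 and Acad11, a dehydrogenase of long chains, by -0.48 ± 0.26. Of 17 regulators on the PPAR-alpha axis, 10 (58.8%) had a lower mean, close to the share of all genes, with a median of -0.069. The groups lay apart with compost lower in 5 (29.4%) and with compost higher in 2 (11.8%). The intestinal and hepatic transcription factor gene Creb3l3 had 3.35 and 3.91 in compost rats, against 6.04 and 4.44 in control rats (-1.61 ± 0.58, and -0.81 without control replicate 1). Ppargc1b, the paralogue of Ppargc1a, differed by -0.79 ± 0.26 and the corepressor gene Nrip1 by -0.49 ± 0.19, while Ppara itself differed by -0.22 ± 0.19. Of 12 genes of peroxisome assembly and membrane transport, 10 (83.3%) had a lower mean, with a median of -0.075. The groups lay apart with compost lower in 5 (41.7%) and with compost higher in 1 (8.33%). Among the 12, Pex2 differed by -0.35 ± 0.22 and Pex13 by -0.25 ± 0.19.

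Markers of absorptive enterocytes, the fat-absorbing cells of the villus, also had mostly lower means in compost. Of 24 measured, 22 (91.7%) had a lower mean in compost, against 53.5% of all genes, with a median of -0.44. The groups lay apart with compost lower in 13 (54.2%), against 15.2% of all genes. They lay apart with compost higher in 1 (4.17%), Mep1b, against 12.7% of all genes. Summed intensities are in units of the 75th percentile of the array and follow the brightest genes of a list. The sum of the 24 markers was 2310 and 3014 in compost rats, against 3627 and 3127 in control rats. The sum of the members was 907 and 1079 in compost rats, against 1146 and 1086 in control rats. The lactase gene Lct and the alkaline phosphatase gene Alpi passed the background flag only in the control rats. They are among the 22 and the 13, and their direction adds nothing to these counts. Of 12 general epithelial markers, 6 had a lower and 6 a higher mean, with a median of 0.0018 and a summed intensity of 953 and 1122 in compost rats, against 1043 and 998 in control rats. All 10 B and plasma cell markers had a higher mean in compost (median 1.31). Cr2 and Ms4a1 among them passed the background flag only in the compost rats, so their direction adds nothing to this count. The summed intensity was 15.1 and 10.3 in compost rats, against 4.42 and 6.26 in control rats, and followed mainly the plasma cell genes Igj and Tnfrsf17. The median deviation of the 10 was instead 0.14 and 0.93 in compost rats, and compost replicate 2 was the highest array for 8 of them. The part of the enterocyte and B cell markers in the members' values was not tested. In whole tissue, fewer cells of a type and less RNA per cell cannot be told apart.

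**Figure D4:**
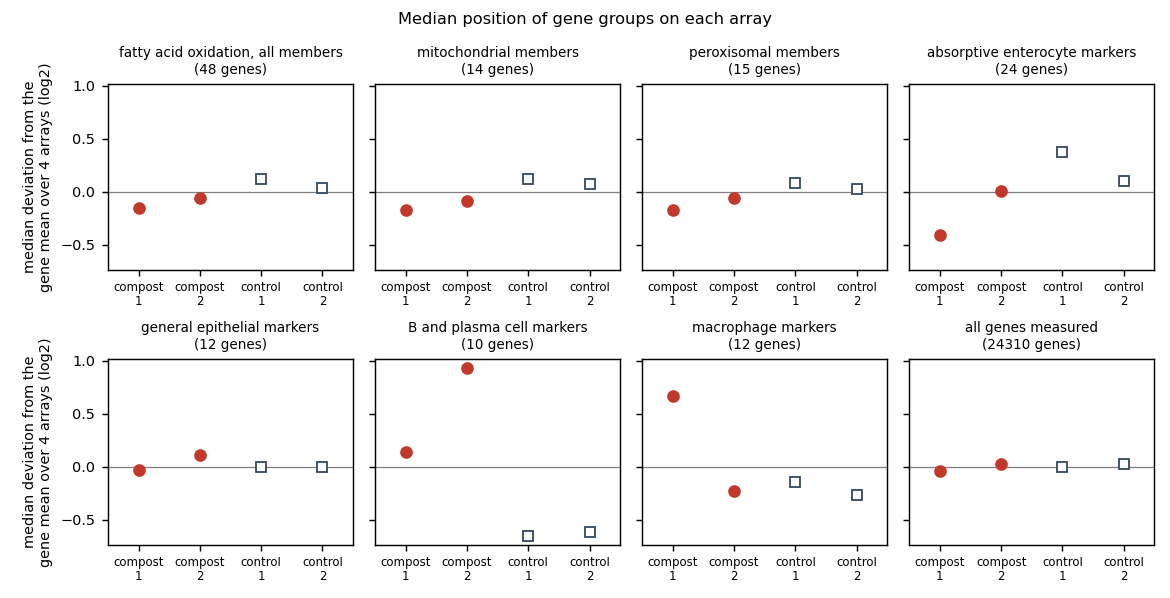
Median deviation of each gene group from the gene's own mean over the 4 arrays (log2 units), with the compost rats as filled circles and the control rats as open squares. Fatty acid oxidation members and absorptive enterocyte markers have compost replicate 1 lowest and control replicate 1 highest, general epithelial markers stay within 0.11 of 0, and B and plasma cell markers separate the groups the other way.

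Other tissue components were given as medians of the difference. Macrophage markers lay at 0.49 (10 of 12 higher), with a median deviation of 0.67 in compost replicate 1 alone of the 4 rats above 0, T cell markers at 0.058 (7 of 10 higher), smooth muscle markers at 0.12 (7 of 10 higher), adipocyte markers at 0.30 (6 of 9 higher) and pancreatic acinar markers at -0.16 (4 of 7 lower). The acinar marker Ela2, 1 of the 4 lower, passed the background flag only in the control rats. Distal small intestine markers lay at 0.17 (5 of 7 higher) and included the ileal bile acid genes Fabp6 and Slc10a2, well above background in all 4 rats. Proximal markers lay at -0.15 (6 of 10 lower). Among them Apoa4, Fabp1, Slc2a5 and Rbp2, with lower means in compost, were also well above background in all 4 rats. The same held for Adh1 (1.00 ± 0.48), Cybrd1 (0.43 ± 0.39) and Ces2 (0.28 ± 0.31), with higher means. Lct, Apoa4 and Fabp1 are in the enterocyte list too, so the lists are not separate. Gata4 of the proximal list and Enpp7 of the distal list were well above background on 1 of the 4 arrays. Spots had a median intensity of 113 and 80.8 on the compost arrays, against 88.4 and 87.2 on the control arrays, and 71.0% and 66.5% of gene spots passed the background flag on the compost arrays, against 68.3% and 70.7% on the control arrays. All arrays lay on 1 slide, with the compost rats at its last positions, so position and group cannot be told apart.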

How the data were processed

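Cy3-labelled RNA was measured on Agilent whole-genome rat arrays, 1 rat each, per the labels. The deposited files hold the spot intensity of Agilent Feature Extraction 9.1.3.1, with spatial and multiplicative detrending on and surrogate values in use for dim spots, and no scaling between arrays, per the file headers. The deposited value table holds the same intensity to within 0.5%. Control and outlier spots were left out, replicate spots were averaged as log2 values, and these were set relative to the 75th percentile of their array. Probes that passed the background flag on 2 or more arrays entered limma 3.58.1 in R 4.3.3 (lmFit and eBayes; p-values are two-sided and adjusted by Benjamini-Hochberg over 28415 probes), with a threshold of 0.05. A gene is represented by its brightest kept probe. Members, roles and lists were chosen with earlier results of these data known. Array values are printed for the members with the smallest p in each role (5 in the mitochondrial and peroxisomal roles, 3 in the others) and any that differed by at least 1 log2 unit; of the pathway lists, up to 3 with the smallest p are named (1 is not reported here), and other names were added after their values were seen. Names came from RefSeq GRCr8. The fit was tested on simulated data. The number of arrays limits the precision.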

Additional observations from a re-analysis of the deposited data

How the results depend on the processing

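The members' median difference kept its sign under every setting run, at -0.19 to -0.14 under the settings that used all 4 arrays and -0.25 to -0.13 without 1 array. Set against all genes it differed by -0.20 to -0.093. No member passed under the settings with all 4 arrays, where normexp background correction called 1 probe of all higher (LOC500183). Leaving out 1 array leaves a group of 1 rat, assumed to vary like the other group, so its calls (0 to 2 of all probes, the 2 being Gzmb and BI395793 without control replicate 2, and 0 members) say nothing on stability. With normexp the regulators' median was -0.25 and 1 member, not 2, lay above both control rats. The deviations of the same-numbered rats correlated at -0.036 over all probes, and the main fit did not pair them. The fit with a replicate block called 0 probes, as did the main fit, so this count says nothing on pairing.

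Without 1 array the medians ranged from -0.29 to -0.18 for mitochondrial genes, -0.15 to -0.0085 for the shuttle, -0.28 to -0.12 for peroxisomal genes, -0.80 to -0.046 for regulators, -0.22 to 0.10 for ketogenic genes and -0.21 to 0.063 for activating synthetases. The sign turned for 22 of the 48 members when 1 array was left out (the share over all genes is not given). Of the members with array values printed by rule these were 7, ranging from -0.46 to 0.018 for Cpt1b, -0.049 to 0.34 for Crat, -0.27 to 0.029 for Acat1, -0.40 to 0.40 for Bdh1, -0.57 to 0.14 for Acsl5, -0.34 to 0.015 for Acsl3 and -1.11 to 0.039 for Angptl4. The other 15 are Acaa2 (-0.83 to 0.10), Fgf21 (-1.05 to 0.36), Acads, Etfb, Etfa, Mlycd, Cpt1a, Cpt2, Phyh, Pecr, Scp2, Crot, Acox3, Acsl1 and Ucp2. Bdh1 was also -0.0087 with quantile scaling and -0.011 with the percentile over probes well above background on all 4 arrays. With 1 array left out, members with the groups apart numbered 24 to 30 below (50.0% to 62.5%, against 28.8% to 43.7% of all genes) and 4 to 8 above (8.33% to 16.7%, against 22.6% to 38.0% of all genes). The cause of the other shifts was not tested.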
